A study of Bos taurus with 55 samples.

Results

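Lactating mammary biopsies were compared by how strongly they expressed SAA3, which encodes a serum amyloid A protein made by the bovine gland. Among 55 arrays, 48 had a mean correlation of 0.96 or more with the other arrays, and from these the members were chosen by their log2 SAA3 intensity. There were 13 arrays at 8 or more, called high here, 19 arrays under 5, called low, and 16 arrays between the thresholds. The remaining 7 arrays, under the correlation minimum, are called apart. SAA3 level was a measured value and not a treatment, so the groups were not assigned by the study, and SAA3 was left out of every test. Log2 intensity is the scale of all levels and differences below, so a difference of 1 is a 2-fold change.

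The biopsies came from 28 Holstein-Friesian cows in mid-lactation, in a study of how dietary unsaturated fatty acids alter expression in the gland. In period I, of 23 days, the ration held 2.7% rapeseed oil, soybean oil, linseed oil or a mixture of the 3 oils, and in period II, of 28 days, every cow received a control diet without added oil. Cows also grazed ryegrass and clover pasture by day. Biopsies closed each period, when cows averaged 176 and 204 days in milk, with 1 array per biopsy and no separate untreated animals. Of the high arrays, 3 came from period I (1 cow each of the soybean oil, linseed oil and mixture groups) and 10 from period II (4 cows that had received rapeseed oil, 3 soybean oil, 1 linseed oil and 2 the mixture). Of the low arrays, 13 came from period I (4 rapeseed, 3 soybean, 2 linseed and 4 mixture) and 6 from period II (1 soybean, 2 linseed and 3 mixture). All cows had received an oil before the control diet, so diet, the order of the periods and stage of lactation cannot be told apart.

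Serum amyloid A proteins belong to the acute phase response, the change in secreted proteins that follows infection or injury. Most forms are made in the liver, but SAA3 is made by mammary epithelium and released into milk, where it is known as a marker of mastitis. Signals through NF-kappa-B and STAT3 switch on acute phase genes, complement factors and chemokines, which mark microbes and draw leucocytes into the tissue. Haptoglobin (HP) binds free haemoglobin and is another acute phase protein of milk, and CHI3L1 is a secreted chitinase-like glycoprotein found in inflamed tissue. SAA3 was read by 1 probe set, NM_181016_at. The neighbouring and closely related gene M-SAA3.2 was not analysed here, so signal from that gene could be counted in SAA3.

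SAA3 was 8.35 at its lowest in the high arrays, 9.66 at the median and 10.84 at its highest. In the low arrays it was 2.22, 2.97 and 4.51. The gap between the groups follows from the thresholds. Just inside the upper threshold lay cow 9 in period I at 8.35 and cow 14 in period II at 8.37, and just outside it lay cow 15 in period I at 7.82 and cow 23 in period II at 7.81. Just inside the lower threshold lay cow 19 in period I at 4.51, and just outside it the same cow in period II at 5.56. The mean was 9.51 ± 0.78 (SD, n = 13) in the high and 3.25 ± 0.76 (SD, n = 19) in the low arrays.

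CHI3L1 and HP, named with SAA3 as marks of the groups, are given as a description with no test. CHI3L1 was 6.99, 8.09 and 11.46 in the high arrays (lowest, median, highest) against 1.80, 3.04 and 6.27 in the low arrays. Every high array was above every low array for CHI3L1. HP was 2.30, 4.24 and 7.66 in the high arrays against 1.95, 2.43 and 3.01 in the low arrays. HP was therefore uneven: 10 of 13 high arrays exceeded the highest low array, while cow 14 in period II (2.30), cow 9 in period I (2.55) and cow 9 in period II (2.93) lay among the low arrays. CHI3L1 thus followed the groups in every array, and HP in most. Both were named as marks with earlier results of these data known, so this is no check of the groups.

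**Figure D1:**
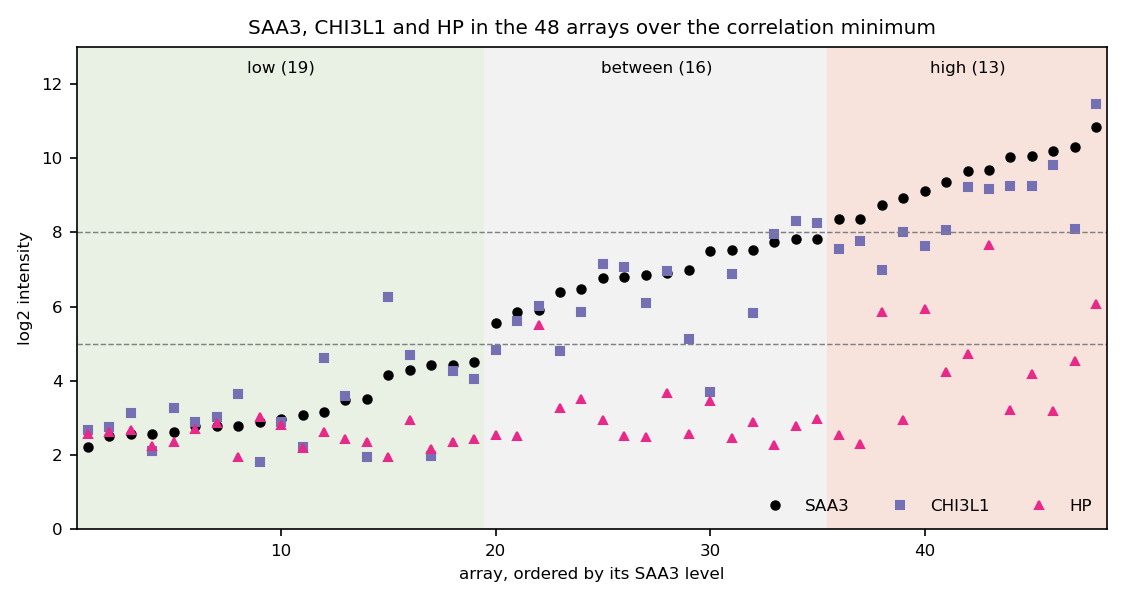
Log2 intensity of SAA3 (circles), CHI3L1 (squares) and HP (triangles) in the 48 arrays over the correlation minimum, ordered along the horizontal axis by SAA3, with shading for the low, between and high groups and dashed lines at the thresholds of 5 and 8. CHI3L1 climbs along the same order, from a median of 3.04 in the low to 8.09 in the high arrays, while HP stays near 2.43 in the low arrays and reaches 7.66 in 1 high array.

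The correlation minimum took out arrays of high SAA3. All 7 apart arrays, from 6 cows, had SAA3 between 9.04 and 12.46, and their HP median was 7.93. Their mean correlation with the other arrays was 0.911 to 0.951, against 0.961 to 0.975 for the 48 arrays kept. The highest SAA3 levels of the series (12.46 in cow 10 and 11.84 in cow 5, both in period I, and 11.96 in cow 1 in period II) thus lay outside the high group. Among genes that mark milk secretion, CIDEA had a median of 5.42 in the apart arrays, against 11.33 in the low and 10.47 in the high arrays. It varied widely among the apart arrays, from 2.91 in cow 15 to 9.87 in cow 2, both in period II. The mean level of milk protein and lactose synthesis genes was 8.36 to 9.46 in the apart and 9.37 to 9.65 in the low arrays, so these overlapped. The high group therefore holds the arrays in which SAA3 was raised while the whole profile stayed close to that of the other biopsies.

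The spread of high SAA3 over array names, periods and oils was examined next. Array names carry 2 prefixes, and 12 of 13 high arrays had the second prefix, against 7 of 19 low arrays (Fisher's exact test, two-sided, p = 0.00280, adjusted over 5 tests 0.0140). Within period I, 2 of 3 high and 1 of 13 low arrays had the second prefix (exact p = 0.0714, adjusted 0.119). By period the exact p was 0.0290 and did not pass after adjustment (0.0725), and it was 0.0630 with thresholds of 7 and 6. The exact tests over both periods treat arrays as independent, although several cows gave an array in each. The change within cows was not tested, so these values do not settle whether SAA3 differed by period. The period II arrays of both groups all had the second prefix, so prefix and period largely coincide. By the oil of period I, high and low arrays differed with exact p = 0.857 in period I and 0.248 in period II. Counts this small cannot show that oils were alike.

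Some cows had a similar level in both periods, and others changed by several log2 units. Of 27 cows with both arrays, 5 were low in both periods, 3 (cows 7, 9 and 11) were high in both, and 3 (cows 14, 18 and 27) went from low in period I to high in period II. No cow went from high to low. Cow 11 had 10.19 and 10.31, and cow 25 had 2.77 in both periods, whereas cow 18 went from 2.61 to 9.68. Cow 2 went from 2.57, a low array, to 10.71, an apart array. Over the 21 cows with both arrays above the correlation minimum, SAA3 in the 2 periods had Pearson r = 0.467 (permutation p = 0.0329, adjusted over 2 statistics 0.0659) and Spearman rho = 0.409 (permutation p = 0.0665, adjusted 0.0665). Without the 2 cows farthest from the median of period I, r was 0.301. The relation therefore did not pass the adjusted threshold and was weaker without those cows. Over all 27 cows r was 0.514 (permutation p = 0.00631).

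**Figure D2:**
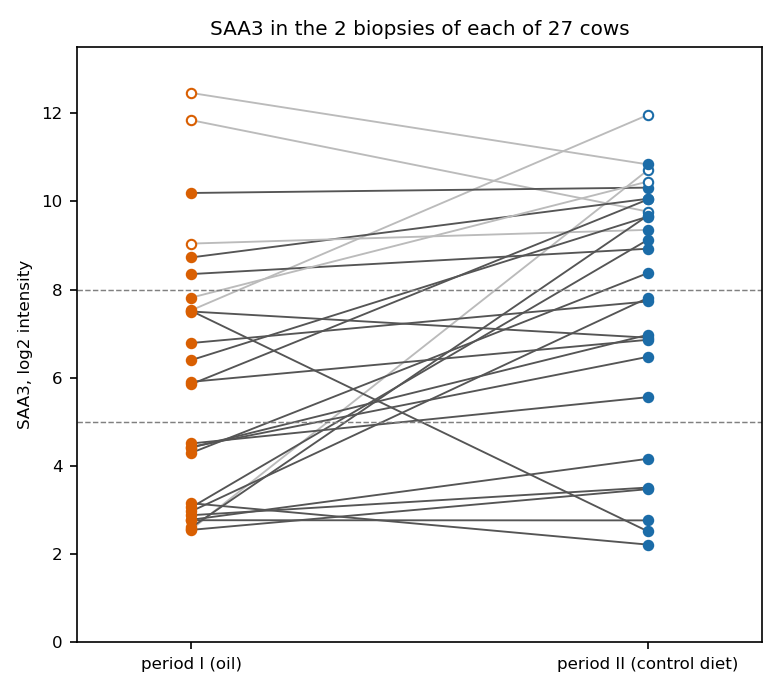
SAA3 (log2 intensity) in period I and period II of the 27 cows with both arrays, joined by a line per cow. Filled points are arrays over the correlation minimum, open points are arrays apart, grey lines belong to cows with an array apart, and dashed lines mark 5 and 8; cow 18 runs from 2.61 to 9.68, and the 3 cows high in both periods stay at 8.35 or more.

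High and low arrays were compared in every probe set with limma, with period as a covariate. Of 10679 probe sets, 1239 (11.6%) were higher and 1103 (10.3%) lower in the high SAA3 arrays at a Benjamini-Hochberg adjusted p under 0.05. By gene symbol, 831 of 6635 genes (12.5%) were higher and 685 (10.3%) lower. The counts of every gene and marker list below are to be read against these shares. The median size of the called differences was 0.38. Differences over 2-fold ran mostly upward, in 159 probe sets higher against 14 lower. The median over all probe sets was -0.03. The median linear intensity of an array moved with the groups, from 9.81 to 10.72 in the high and from 9.52 to 10.21 in the low arrays. With each array centred on its own median the split changed from 52.9% to 36.7% of calls higher, and with quantile normalization it was 48.0%.

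These counts depend on how the cow is treated. With the cow as a fixed block, 6 probe sets were higher and 3 lower, since that comparison rests on the 3 cows that moved from low to high. Of the calls above, 97.2% of the higher and 97.0% of the lower kept their sign in that fit. The same arrays had made those calls, so the kept signs are no separate check. Among the tested genes named below, only C4BPA was still called there (adjusted p = 0.0242 by limma). With the cow as a random block the counts were 1198 and 1060, of which 1192 and 1047 were shared with the calls above. Within the second prefix alone, 12 high against 7 low arrays gave 622 higher and 555 lower. In bulk tissue, more cells of a type and more RNA per cell cannot be told apart, which holds for every gene below.

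Only 8 probe sets had all 13 high arrays above all 19 low arrays (0.0749% of those tested), and 1 had all below (0.00936%). The 8 included CHI3L1, S100A2, CFB, IL27RA, PYCARD and B2M, with another pair that carried no gene symbol, and the 1 below was CES2. S100A2, an S100 calcium-binding protein of epithelia, was 5.64, 6.90 and 8.80 in the high arrays (lowest, median, highest) against 2.98, 4.18 and 4.75 in the low arrays. Its difference was 3.06 ± 0.23 (SE, limma adjusted p = 8.89e-11), or 8.36-fold. IL27RA, a subunit of the interleukin 27 receptor, differed by 1.15 ± 0.14, with 5.23 at the lowest of the high and 5.18 at the highest of the low arrays. PYCARD, the adaptor of inflammasomes, was dim, with medians of 2.25 and 1.63, and differed by 0.76 ± 0.10. CES2, a carboxylesterase, had medians of 3.01 and 3.72 and was lower by -0.67 ± 0.08. PYCARD and CES2 were picked out after their values were seen.

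Complement, the plasma and tissue cascade that coats and lyses microbes, was the gene list with the highest median. Of 14 measured genes 10 were higher and 0 lower, with a median of 0.88 against -0.03 for all named genes. CFB, the factor B that forms the alternative C3 convertase, was 5.88, 6.73 and 8.70 in the high against 3.20, 4.07 and 4.65 in the low arrays, a difference of 2.86 ± 0.25 (limma adjusted p = 1.59e-09). CFI, the protease that inactivates C3b, was 3.30, 5.56 and 7.33 against 1.69, 2.18 and 4.20. CFI differed by 3.16 ± 0.34, and 10 of 13 high arrays exceeded every low array.

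C4BPA, the C4b-binding protein that restrains the classical pathway, had the largest fitted difference of the genes with a symbol apart from CHI3L1. It was 2.79, 6.15 and 9.82 in the high arrays and never above 2.88 in the low arrays, a difference of 3.84 ± 0.54 (limma adjusted p = 1.13e-05). Low arrays lay near the bottom of the scale for C4BPA and CFI, where a difference can be understated. Cow 9 lay at or near the low-group level in both periods (3.16 and 2.79), and cow 10 in period II was highest. The 3 cows that moved from low to high showed it within animal: cow 14 went from 2.72 to 4.58, cow 18 from 2.07 to 7.28 and cow 27 from 2.13 to 7.17. C3, the central component, was abundant in both groups and higher by 1.09 ± 0.31, with 5 of 13 high arrays above every low array. The classical starters C1QA (1.06 ± 0.25), C1QB (1.11 ± 0.25) and C1S (0.97 ± 0.15) were higher, as were the regulator SERPING1 (0.71 ± 0.18), the factor D gene CFD (0.73 ± 0.14) and the terminal component C7 (1.09 ± 0.25). SERPING1 differed by 1.17 within period II and by 0.01 within period I, but the test of that difference between periods did not pass (limma adjusted p = 0.255).

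**Figure D3:**
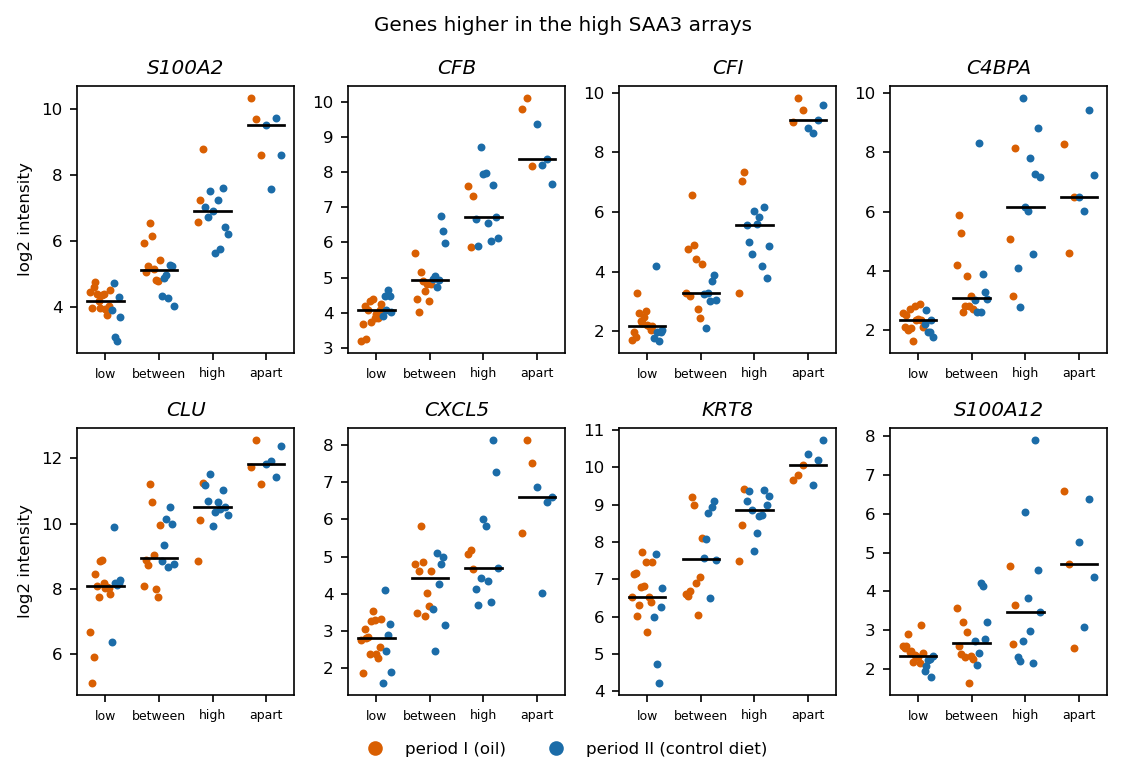
Log2 intensity per array of 8 genes that were higher in the high SAA3 arrays, for the low, between, high and apart arrays, with period I arrays in orange, period II arrays in blue and a black line at each group's median. S100A2 and CFB separate the low from the high arrays completely, C4BPA and S100A12 spread widely within the high arrays, and for each gene the median of the between arrays lies between those of the low and high arrays.

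Liver-type acute phase genes were mostly dim. Apart from HP, 11 were measured, of which 2 were higher and 1 lower, with a median of -0.12, and -0.06 with quantile normalization. These counts are close to the 12.5% and 10.3% of all named genes. LBP, which carries bacterial lipopolysaccharide to its receptor, was 5.66, 7.47 and 9.46 in the high against 4.66, 5.95 and 7.43 in the low arrays, a difference of 1.35 ± 0.37 (limma adjusted p = 0.00809). SERPINA1, the antitrypsin that restrains neutrophil elastase, differed by 0.93 ± 0.33 (adjusted p = 0.0410). Its call was lost in 7 of the fits that left out 1 array, among them the one without the high array of cow 7 in period I (adjusted p = 0.0810), and with the array prefix as a covariate (0.0550).

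Milk defence proteins were divided. Apart from CHI3L1, 18 were measured, with 6 higher, 1 lower and a median of -0.12. Lactoferrin (LTF), which binds iron in milk, was among the most abundant, at a median of 12.70 in the high against 11.43 in the low arrays, and 11 of 13 high arrays exceeded every low array (difference 1.26 ± 0.26). Clusterin (CLU), a secreted chaperone that also rises in the involuting gland, was 8.85, 10.51 and 11.51 against 5.13, 8.09 and 9.91, a difference of 2.44 ± 0.36 (limma adjusted p = 1.79e-05). Lysozyme (LYZ), which cleaves bacterial walls, was higher by 1.48 ± 0.37. The beta-defensin DEFB4A was near the bottom of the scale in most arrays, with medians of 2.73 and 1.92, and only 2 high arrays exceeded the highest low array (difference 1.14 ± 0.31). Without cow 11 in period I the difference was 0.69, still called.

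Chemokines, the secreted proteins that guide leucocytes, had a median of 0.60, with 9 of 19 measured genes higher and 1 lower. CXCL5, which attracts neutrophils, was 3.71, 4.70 and 8.13 in the high against 1.62, 2.82 and 4.10 in the low arrays. It was higher in 11 of 13 high arrays than in any low array (difference 2.39 ± 0.37, limma adjusted p = 3.69e-05). CCL2, which attracts monocytes, differed by 1.67 ± 0.44 and CXCL10, which attracts T cells, by 1.34 ± 0.40, with 2 and 4 high arrays above the low arrays. CXCL14 and CXCL12, made at rest by epithelium and stroma, were higher by 0.95 ± 0.19 and 0.85 ± 0.25, and CXCR4, the receptor of CXCL12, by 1.07 ± 0.18. CXCL8, the main neutrophil attractant of mastitis, was 1.89, 2.51 and 7.18 against 2.11, 2.61 and 3.20 and did not pass (0.47 ± 0.37, adjusted p = 0.370), with a difference of 0.20 without cow 18 in period II.

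Genes of the signals that drive such responses differed less. Of 19 genes of Toll-like receptors and NF-kappa-B, 5 were higher and 1 lower (12.5% and 10.3% of all named genes), with a median of 0.09. NFKBIA, the inhibitor that NF-kappa-B itself induces, was higher by 0.98 ± 0.25, NFKB1 by 0.48 ± 0.13, the survival factor BIRC3 by 0.58 ± 0.15 and TLR3, a sensor of double-stranded RNA, by 0.71 ± 0.12. In the STAT3 list 4 of 12 were higher and 0 lower, with a median of 0.29. These were STAT3 itself (0.61 ± 0.16), the transcription factors CEBPD (0.61 ± 0.13) and JUNB (0.67 ± 0.17), and the survival factor MCL1 (0.67 ± 0.15). CEBPD ran from 8.20 to 9.59 in the high and from 8.01 to 8.73 in the low arrays, with 9 of 13 high arrays above every low one.

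The cytokines often used to define acute inflammation were not among the calls. TNF had medians of 1.77 and 1.86 (difference -0.08 ± 0.08, limma adjusted p = 0.492) and IL1B had 2.28 and 2.36 (-0.07 ± 0.12, adjusted p = 0.706), all near the bottom of the scale. Of 21 cytokine and receptor genes, 4 were higher and 1 lower, with a median of 0.00. Among all named genes 12.5% were higher and 10.3% lower, so these counts are not far from that share. IL18, an interleukin released by inflammasomes, was 3.25, 4.02 and 6.26 in the high against 2.59, 3.16 and 4.11 in the low arrays (1.41 ± 0.25). The receptors IL6R (0.35 ± 0.08) and CSF1R (0.60 ± 0.09), the latter of macrophages, were also higher. Of 14 interferon response genes 0 were called by limma (2 had an unadjusted p under 0.05), with a median of 0.01, and -0.34 with the fixed cow block. In 11 of the 14 the medians of both groups were under 4, so a difference could be missed.

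Antigen presentation genes had a median of 0.75, with 9 of 13 higher and 0 lower. BOLA-DRA, a class II chain, was 8.11, 8.93 and 9.67 in the high against 7.66, 8.27 and 8.67 in the low arrays (0.94 ± 0.13, limma adjusted p = 7.16e-06). The invariant chain CD74 differed by 0.91 ± 0.23 and CTSS, the cathepsin that trims it, by 0.79 ± 0.11. For class I, the light chain B2M ran from 13.00 to 13.35 in the high and from 12.56 to 12.99 in the low arrays, a small difference of 0.38 ± 0.05. The immunoproteasome subunit PSMB9 (0.96 ± 0.15) and the peptide transporter TAP1 (0.70 ± 0.19) were higher too. JSP.1, a class I heavy chain, had one of the largest differences, 3.14 ± 0.70, but ran from 5.64 to 12.27 within the high and from 3.26 to 8.69 within the low arrays. Class I heavy chains are a family of near-identical, variable genes, so the signal of JSP.1 alone is uncertain.

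Leucocyte markers moved with SAA3, and their part in the gene differences was not tested. For macrophages and monocytes 8 of 11 measured markers were higher and 1 lower, with differences from -0.68 to 1.48. Their mean level was 5.39 to 6.98 in the high against 4.94 to 5.68 in the low arrays. TYROBP, a signalling adaptor of myeloid cells, had 11 of 13 high arrays above every low array (1.36 ± 0.17), and CD68 differed by 1.29 ± 0.25. T and NK cell markers were higher in 7 of 10, with mean levels of 2.87 to 4.06 against 2.69 to 3.10. Chains of the T cell receptor complex, CD3G (1.40 ± 0.20) and CD3E (0.71 ± 0.13), led them, but under the fixed cow block this list had a median of -0.02 and CD3E differed by 0.02. For B and plasma cells 3 of 7 were higher, with JCHAIN, which joins polymeric antibodies, at 1.52 ± 0.29 and the B cell factor POU2AF1 at 0.94 ± 0.25.

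Neutrophil markers behaved differently from array to array. Of 9 measured, 1 was higher and 1 lower, close to the 12.5% and 10.3% of all named genes, with a median of 0.32. In 8 of the 9 the medians of both groups were under 4, which limits what could be seen. S100A12, a neutrophil alarmin, passed (1.49 ± 0.42, limma adjusted p = 0.0104), but its level was 7.90 in cow 18 and 6.06 in cow 11, both in period II, and 4.64 or less in the other 11 high arrays, with 3.13 the highest of the low arrays. The partners S100A8 (0.85 ± 0.44, adjusted p = 0.162) and S100A9 (0.60 ± 0.23, adjusted p = 0.0524) did not pass. The same 2 arrays had the highest S100A8, at 8.33 and 6.50. Without cow 18 in period II the difference was 0.54 for S100A8 and 0.43 for S100A9.

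Epithelial and stromal genes were higher as well. KRT8, a keratin of luminal cells, was 7.48, 8.84 and 9.41 in the high against 4.23, 6.53 and 7.74 in the low arrays (2.41 ± 0.31, limma adjusted p = 3.49e-06), and 12 of 13 high arrays exceeded every low array. Luminal markers were higher in 4 of 7 and lower in 0, and junction and keratin genes in 7 of 13 and 0, with the tight junction protein CLDN4 at 0.81 ± 0.16. Fibroblast and matrix markers were higher in 7 of 10, and their mean level was 7.37 to 8.43 against 6.68 to 8.06. Among them the matrix glycoprotein FBLN1 differed by 1.07 ± 0.24, vimentin (VIM) by 0.71 ± 0.14, the collagen COL3A1 by 0.65 ± 0.14 and the proteoglycan decorin (DCN) by 0.57 ± 0.10. Endothelial markers were higher in 0 of 10 and lower in 1, the growth factor receptor KDR (-0.36 ± 0.09). That is close to the 10.3% of all named genes, and 4 of the 10 had medians under 4 in both groups. Myoepithelial markers were called by limma in 0 of 6, of which 0 had an unadjusted p under 0.05.

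In oxidative stress and metal handling 9 of 21 were higher and 0 lower, with a median of 0.24, and 0.15 with quantile normalization. SOD2, the mitochondrial superoxide dismutase that NF-kappa-B induces, was 9.53, 10.32 and 11.85 in the high against 8.52, 8.98 and 9.53 in the low arrays (1.50 ± 0.20, limma adjusted p = 5.11e-06), and the haem-degrading HMOX1 was higher by 0.71 ± 0.20. Of 18 apoptosis and involution genes 8 were higher and 0 lower, including the inflammatory caspase CASP4 (0.95 ± 0.19). IGFBP3, which binds insulin-like growth factors, was higher by 1.08 ± 0.23. Cytosolic ribosomal protein genes were higher in 11 of 17, by small amounts such as 0.33 ± 0.06 for RPL27 and 0.35 ± 0.07 for RPL32. The median of that list was 0.21, and 0.09 with quantile normalization. Proliferation genes were higher in 3 of 16, close to the 12.5% of all named genes, with a median of 0.07, and included the replication helicase subunit MCM6 (0.73 ± 0.12).

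Milk protein genes did not separate the groups. The 6 measured caseins, whey proteins and GLYCAM1 had 0 calls by limma (1 had an unadjusted p under 0.05), with differences from -0.10 to 0.01. Their medians of 13.15 to 14.24 in the high arrays lay near the top of the scale, where the highest value of the table was 14.40, so that small differences may not be visible. CSN1S1, the alpha-S1-casein, was 12.95, 13.15 and 13.29 in the high against 13.02, 13.15 and 13.35 in the low arrays (-0.10 ± 0.04, limma adjusted p = 0.0641). LALBA, the alpha-lactalbumin that directs lactose synthesis, was 13.24, 13.54 and 13.76 against 13.45, 13.56 and 13.65 (-0.02 ± 0.05, adjusted p = 0.748). In glucose supply, the transporter SLC2A1 was lower by -0.64 ± 0.14, with 9 of 13 high arrays below every low array. The hexokinase HK1 was higher by 0.85 ± 0.17, with 12 of 13 above.

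Genes of the milk fat globule membrane, the layer that wraps each fat droplet as it leaves the cell, had the lowest median of the lists, -0.34, with 8 of 12 lower and 0 higher. CIDEA, a lipid droplet protein needed for milk fat secretion in mice, was 9.20, 10.47 and 11.44 in the high against 10.65, 11.33 and 11.56 in the low arrays (-0.82 ± 0.16, limma adjusted p = 0.000570). It differed by -1.43 within period I and by -0.43 within period II, which did not pass as a difference between periods (adjusted p = 0.284). The membrane mucin MUC15 was lower by -0.72 ± 0.16. PLIN2, which coats droplets, was lower by -0.40 ± 0.07, with 10 of 13 high arrays below every low array, and butyrophilin (BTN1A1) by -0.27 ± 0.05.

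**Figure D4:**
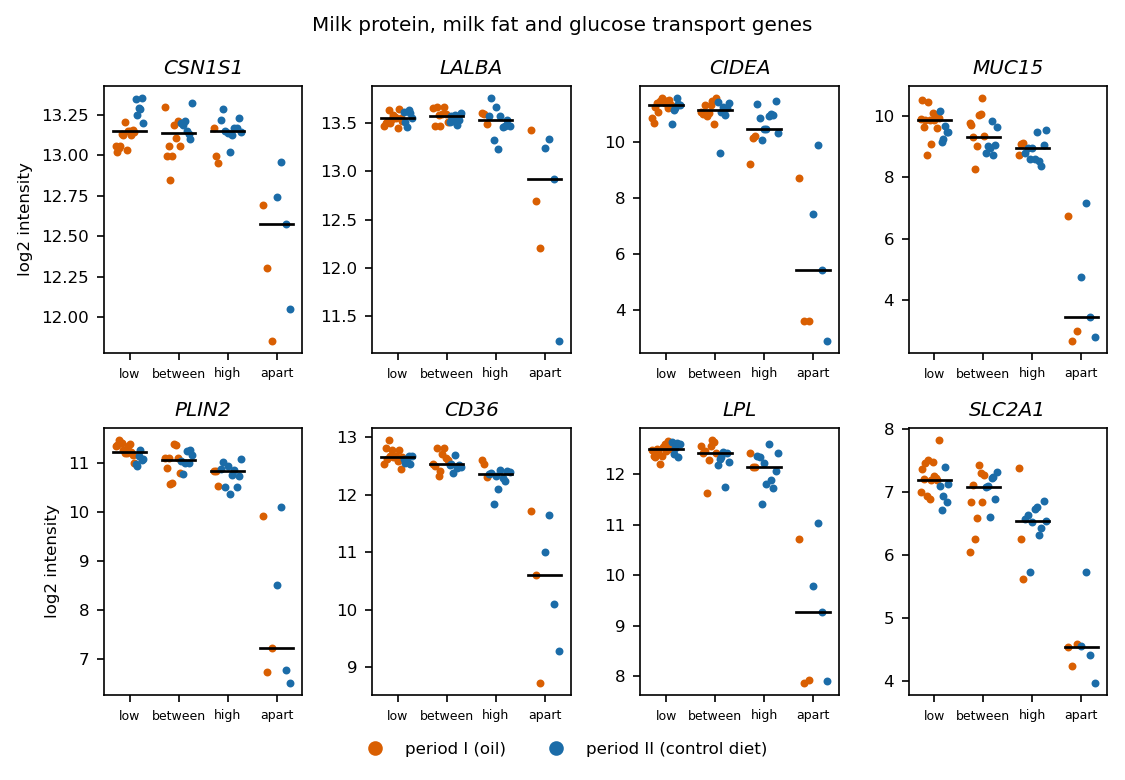
Log2 intensity per array of milk protein (CSN1S1, LALBA), milk fat globule (CIDEA, MUC15, PLIN2), fatty acid uptake (CD36, LPL) and glucose transport (SLC2A1) genes, for the low, between, high and apart arrays, with period I in orange, period II in blue and a black line at each group's median. Medians of the high arrays lie below those of the low arrays for the globule, uptake and transport genes. The apart arrays lie lower still, as for PLIN2 at a median of 7.23 against 10.84 in the high arrays, with a smaller gap and some overlap for LALBA (12.92 against 13.54).

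Milk fat synthesis leaned the same way, with 8 of 29 genes lower, 2 higher and a median of -0.16, where 10.3% of all named genes were lower. The fatty acid importers CD36 (-0.28 ± 0.06) and LPL (-0.35 ± 0.09) were lower, and for CD36 11 of 13 high arrays lay below every low array. GPAT4, an acyltransferase of triacylglycerol assembly, was lower by -0.75 ± 0.21 and the nuclear receptor PPARG by -0.47 ± 0.13. The desaturase SCD did not pass (-0.13 ± 0.06, limma adjusted p = 0.143), nor did ACACA, the first enzyme of fatty acid synthesis (-0.91 ± 0.36, adjusted p = 0.0664). ELOVL5, which lengthens polyunsaturated fatty acids, was higher by 1.29 ± 0.18, opposite to most of the list. Cholesterol synthesis genes were lower in 5 of 14, against that 10.3%, and higher in 1, with MVD, a mevalonate pathway enzyme, at -0.48 ± 0.11.

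Ion and solute transport genes supplied several of the falls. Of 11 sodium and chloride transport genes, 5 were lower and 1 higher. SLC34A2, the epithelial sodium-phosphate transporter, was 1.24, 2.19 and 4.37 in the high against 1.67, 3.44 and 6.71 in the low arrays (-1.41 ± 0.42, limma adjusted p = 0.0155). AQP3, a channel for water and glycerol, was lower by -0.63 ± 0.15 and the sodium channel subunit SCNN1B by -0.42 ± 0.07. The cotransporter SLC12A2 was higher by 0.79 ± 0.21. SLC38A3, a glutamine transporter, was lower by -1.01 ± 0.19. Respiratory chain genes were lower in 3 of 30, close to the 10.3% of all named genes, and higher in 1.

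Among the other genes with the largest differences, PHYHIPL had the deepest fall. It was 1.06, 2.18 and 5.31 in the high against 2.71, 4.69 and 6.64 in the low arrays (-2.09 ± 0.48, limma adjusted p = 0.00216). BDH1, an enzyme of ketone body use, was lower by -1.38 ± 0.28 and ALOX15, a lipoxygenase that makes lipid mediators, by -1.21 ± 0.23. PRKAR2B, a regulatory subunit of protein kinase A, was lower by -1.08 ± 0.15, with 9 of 13 high arrays below every low array. SELENBP1, a selenium-binding protein, was lower by -1.04 ± 0.28. TMOD4 (-1.25 ± 0.37) and SPINK4 (-1.06 ± 0.32) were also lower, but the TMOD4 call was lost without cow 9 in period I (adjusted p = 0.0707), and the SPINK4 call without that array (0.0549) or without cow 11 in period I (0.0575).

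On the upper side, transthyretin (TTR), a carrier of thyroid hormone, was 5.79, 7.34 and 9.42 in the high against 3.54, 4.91 and 7.20 in the low arrays (2.36 ± 0.38, limma adjusted p = 4.53e-05). Scinderin (SCIN), which severs actin, was higher by 2.02 ± 0.35. Trypsinogen PRSS2 fell into distinct levels. It lay at 5.50 or more in 8 high arrays and at 1.49 or less in 5, against a low-group median of 1.65 (2.51 ± 0.77, adjusted p = 0.0180). Its call was lost without cow 11 in period I (0.0535). LOC338050 (2.13 ± 0.46) and LOC513055 (2.07 ± 0.26), which have no gene name in the table used, were also among the 15 largest rises.

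**Figure D5:**
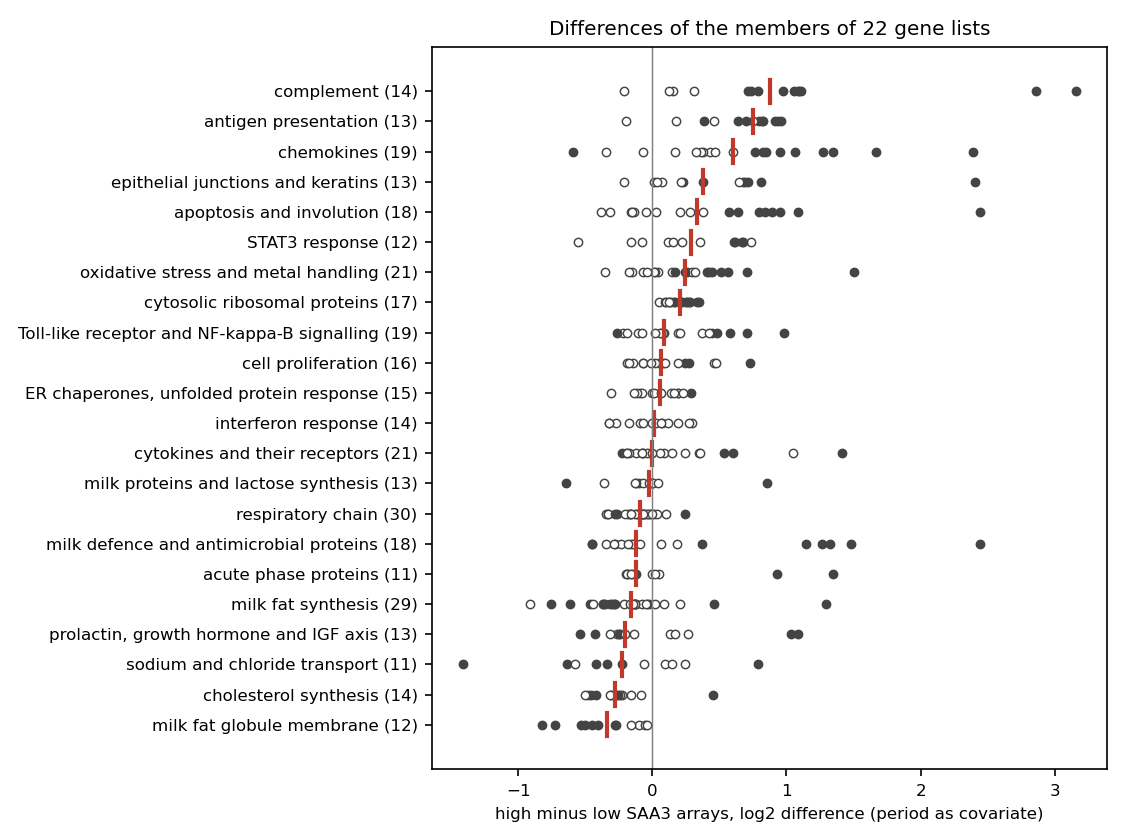
High minus low SAA3 difference (log2, period as covariate) of each measured member of 22 gene lists, with the number of members in parentheses. Filled points passed the adjusted threshold, open points did not, and the red line is the list's median, from 0.88 for complement down to -0.34 for the milk fat globule membrane; SAA3, HP and CHI3L1 are not drawn.

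Across all 48 arrays, after the period means were taken out, the genes most like SAA3 by Pearson correlation were CHI3L1 (0.91), S100A2 (0.89), CFB (0.85), IL27RA (0.83), CLIC1 (0.81), SOD2 (0.80), CFI (0.80) and CTSS (0.78). These are descriptions over arrays that share cows, and 32 of them formed the groups. CLIC1, an intracellular chloride channel protein, differed by 1.54 ± 0.18 between the groups.

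The 2 periods share no arrays but share cows, so they are not independent: all 3 high cows of period I were high again in period II, and 5 of the 6 low cows of period II had been low in period I. Within period I, 3 high against 13 low arrays gave 534 higher (5.0% of those tested) and 260 lower (2.43%). Within period II, 10 against 6 gave 489 higher (4.58%) and 412 lower (3.86%). Of the higher calls 206 were shared, 38.6% of those in period I and 42.1% of those in period II, and of the lower calls 49 (18.8% and 11.9%). S100A2 differed by 3.28 and 2.92, CFB by 3.03 and 2.76, and CLU by 2.38 and 2.48 in periods I and II. A direct limma test of the difference between periods called 0 of 10679 probe sets (916 had an unadjusted p under 0.05). With 3 high arrays in period I, that test shows no more than that no probe set passed.

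The 16 arrays between the thresholds took no part in the comparison, but several of their cows gave a high or low array in the other period. They are therefore not independent of the groups. Within these 16 arrays the slope on SAA3 was called in 0 probe sets (559 had an unadjusted p under 0.05). Its sign was positive for 86.4% of the probe sets called higher, against 49.4% of all tested, and negative for 79.1% of those called lower, against 50.6%. Probe sets that vary together are not separate counts, so these shares are a description with no test. S100A2 had a median of 5.11 there, between 4.18 in the low and 6.90 in the high arrays, and CFB had 4.92. The apart arrays, some of them from cows that also gave a high or low array, went further in the same direction. Their median lay beyond that of the high arrays for 97.0% of the probe sets called higher (51.0% of all tested) and 90.3% of those called lower (49.0%). S100A2 reached a median of 9.51 there, CFI 9.09 and KRT8 10.06, and CIDEA, BTN1A1 and MUC15 were at 5.42, 8.50 and 3.43.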

How the data were processed

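Mammary biopsies were measured on Affymetrix bovine arrays, 1 per biopsy, from 2 micrograms of total RNA per the labels' protocols. The authors deposited linear intensities per probe set. RMA and GCRMA are the tools that the submitters' processing notes give, and the step each served is not given in the sources used here. Here log2 was taken, 112 control probe sets were left out of 11495, and 703 probe sets with values identical to another's were merged, which left 10680, and 10679 without SAA3. RefSeq symbols named 6648 of them (6635 genes), 4029 had no symbol and 2 stood under several. Genes read by more than 1 probe set were represented by the brightest. Median intensity per array lay between 9.47 and 12.0, and the number of arrays limits the precision.

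Array correlation was the mean Pearson correlation of an array with all others. Groups were compared with limma 3.58.1 in R 4.3.3 (lmFit and eBayes, period as covariate, two-sided, Benjamini-Hochberg over 10679 probe sets), and called means an adjusted p under 0.05. Differences are high minus low, with the standard error. HP and CHI3L1 stayed in the fit but not in the list counts. The arrays of 10 high and 14 low cows include several cows more than once, since the same animal gives both periods. The consensus correlation within cows was 0.0884, and fits with the cow as a random or fixed block stand beside the main one. Otherwise biopsies of different cows are the replicates. Members and gene lists were chosen with earlier results of these data known. Named genes were the 15 largest rises and 10 largest falls, up to 4 genes of smallest p in each of 22 gene and 12 marker lists, all acute phase, defence, neutrophil, chemokine and milk protein genes where described, and the 8 most like SAA3. Some other list members were named for their role, and a few genes that the rule names are not reported here. In a simulation of all 10679 probe sets, the fit recovered 80% of 100 that were made 1.5-fold higher and 97% of 100 made 2-fold higher, and called 10 unchanged ones. Alternatives covered normalization, dim probe sets, cow, prefix, array number, oil, period, thresholds, the correlation minimum, array weights and leaving out each array.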

Additional observations from a re-analysis of the deposited data

Results flagged for a closer look

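Single arrays stood far from the others of their group and period for 14 of 214 groups looked at, by Dixon's test on log2 intensity; chance alone sets apart about 1 in 20 groups. Cow 18 in period II was highest of the 10 high arrays of that period for SERPINA1 (8.27, next 5.78), S100A9 (5.38, next 3.57), IL1B (3.63, next 2.46) and HK1 (6.09, next 5.33). Cow 10 in period II was highest for CHI3L1 (11.46, next 9.26) and lowest for SLC2A1 (5.74, next 6.33). Cow 13 had DEFB4A at 4.81, cow 11 had CD3E at 4.94 and cow 27 had KDR at 3.98, each the highest of the same 10 arrays.

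Cow 6 in period II, a low array with CHI3L1 at 6.27, was apart from the other 5 low arrays of that period in 4 genes. CFI was 4.20 there against 2.06 for the next array, DEFB4A was 2.71 against 1.92, RPL27 was 11.65 against 11.41, and PRKAR2B was 5.96 against 6.71. Cow 25 in period II was highest for PRSS2, at 2.03 against 1.60.

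The 7 arrays under the correlation minimum took no part in the comparisons and held median levels of 10.71 for SAA3, 7.93 for HP and 10.41 for CHI3L1, above the highest low arrays (4.51, 3.01 and 6.27).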

How the results depend on the processing

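Counts of probe sets higher and lower (1239 and 1103), or 1 of the 2, moved by over 1.5 times under the settings that follow, up to centring. With the cow as a fixed replicate block, which rests on cows 14, 18 and 27, they were 6 and 3. Within period I they were 534 and 260, within period II 489 and 412, within prefix 1 (1 high array) 302 and 75, and within prefix 2 622 and 555. A correlation minimum of 0.97 left 15 arrays and gave 22 and 15, all 39 high and low arrays without a minimum gave 2692 and 3093, and probe sets with a mean log2 of 4 or more (4404 tested) gave 822 and 455. Centring on the array median gave 1798 lower. Leaving out 1 array at a time (low arrays were added after the data were seen) moved the counts by less than 1.5 times. It gave 936 to 1316 higher and 741 to 1226 lower, both lowest without cow 11 in period I. The exact p of SAA3 group by period was 0.0630 with thresholds of 7 and 6. Of 95 called genes named in the text, 1 kept its call with the fixed block, 5 with the minimum of 0.97 and 95 with the random block, and no sign among them turned under any alternative. Signs turned only for genes that did not pass: CXCL8 within prefix 1 (-0.16), LALBA with oil by period as covariates (0.018) and within period I (0.023), and IL1B with the fixed replicate block (0.24). Dim genes such as TNF and IL1B lie near the lowest signals and milk proteins near the highest, which limits what could be seen for both.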

Other observations

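Endoplasmic reticulum chaperones and unfolded protein response genes, which handle the folding of secreted proteins, were higher in 1 of 15 with a median of 0.05. The prolactin, growth hormone and IGF axis was higher in 2 of 13 and lower in 3, with a median of -0.20. Adipocyte markers were higher in 1 of 8 and lower in 2, erythrocyte markers lower in 1 of 5 and skeletal muscle markers lower in 1 of 10. Keratinocyte markers were called by limma in 0 of 2, of which 0 had an unadjusted p under 0.05. Over all named genes 12.5% were higher and 10.3% lower. Medians of both groups were under 4 for 5 of 8 adipocyte and 5 of 5 erythrocyte markers. The same held for 10 of 10 skeletal muscle and 2 of 2 keratinocyte markers. One of the unnamed probe sets whose groups did not overlap had levels close to those of CHI3L1, with medians of 8.26 in the high and 3.18 in the low arrays and a difference of 5.12 ± 0.45.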
